A study of Mus musculus and Homo sapiens with 10 samples.

Results

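Wide inter-LAD regions are stretches of chromosome of 1 Mb or more that the lamina contact maps of N2A cells leave free of lamina-associated domains (LADs). They were chosen from the deposited LAD lists themselves. On chromosomes 1 to 19 and X, every maximal run that lay in neither the Nanopore nor the Illumina consensus list, between the first and the last LAD of its chromosome, was measured, and those of 1 Mb or more were kept. There were 311 of them among 1165 inter-LAD runs. The other 854 runs, all under 1 Mb, are called narrower runs here, and the 1185 LADs are those of either list after overlapping LADs were joined. Widths, borders and flanking LADs therefore follow from the choice and are given as descriptions. Gene content, gene families and promoter sequence took no part in the rule for the regions. The gene lists, however, were chosen with earlier results of these data known.

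N2A is a mouse neuroblastoma cell line. The maps come from DamID, in which the bacterial adenine methylase Dam is fused to a protein and marks GATC sites wherever that protein comes near the DNA. The groups behind the lists, as far as the labels show, were LaminB1-Dam read by Nanopore (1 sample), LaminB1-Dam read by Illumina (2 samples), and Dam alone as the control by Nanopore (1 sample) and by Illumina (1 sample), all induced with doxycycline. A further N2A sample carries the label 10% LaminB1-Dam, and the sources do not state if its reads were used for a consensus list. The labels do not say which promoter drives the fusions or whether the lines are clones. The lists hold intervals on a 20 kb grid with no value per sample, so no replicate spread, read depth or test could be had, and the 311 regions, which share 1 genome and 2 lists, are not replicates of anything. The lists do not say how much of a stretch outside the LADs could be read by either method.

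The nuclear lamina is a meshwork of lamin proteins under the inner nuclear membrane, and LADs are the long, mostly gene-poor and transcriptionally quiet stretches of chromatin that touch it. The chromatin between them is generally gene-rich, replicates early and holds most active promoters. Many of those promoters are CpG islands, which keep the CG dinucleotides that most of the mammalian genome has lost through methylation.

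Promoter sequences are shown because promoter windows were the sequence compared, and these differed between wide regions and LADs. Sequence outside the promoter windows was not compared. The 8 windows printed here, each 300 bases from 250 before to 50 after a RefSeq start site (GRCm38.p6, the same assembly as mm10), were taken from genes named by position. They cover a border of the widest region, the densest and the emptiest regions, and gene families of restricted expression that also lie outside LADs. Capitals mark every CG and every GATC, the sequence that Dam methylates. Dmxl2, at chr9:54501577-54501876 on the minus strand, is the gene nearest to the left border of the widest region and encodes a synaptic regulator of the vesicle proton pump. Its start site is at the end of the gene that faces away from that border. Dot1l, at chr10:80754953-80755252 on the plus strand, lies in the densest region and encodes the histone H3 lysine methyltransferase of transcribed genes. Tbl1xr1, at chr3:22076402-22076701 on the plus strand, encodes a subunit of nuclear corepressor complexes and is alone in its region. Klf6, at chr13:5861239-5861538 on the plus strand, encodes a zinc finger transcription factor in another of the emptiest regions. Evc, at chr5:37336832-37337131 on the minus strand, and Evc2, at chr5:37338228-37338527 on the plus strand, encode partner proteins of the primary cilium in Hedgehog signalling and stand back to back at a border. Otog, at chr7:46240737-46241036 on the plus strand, encodes otogelin of the inner ear. Cyp2d10, at chr15:82407145-82407444 on the minus strand, encodes a cytochrome P450 and is the last gene before a border.
Dmxl2: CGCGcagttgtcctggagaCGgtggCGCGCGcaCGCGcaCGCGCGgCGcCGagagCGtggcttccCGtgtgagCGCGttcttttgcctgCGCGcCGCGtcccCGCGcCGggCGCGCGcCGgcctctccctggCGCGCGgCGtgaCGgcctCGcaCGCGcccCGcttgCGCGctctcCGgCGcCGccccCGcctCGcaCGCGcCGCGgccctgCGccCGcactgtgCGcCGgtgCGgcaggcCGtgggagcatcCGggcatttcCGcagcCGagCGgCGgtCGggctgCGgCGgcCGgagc
Dot1l: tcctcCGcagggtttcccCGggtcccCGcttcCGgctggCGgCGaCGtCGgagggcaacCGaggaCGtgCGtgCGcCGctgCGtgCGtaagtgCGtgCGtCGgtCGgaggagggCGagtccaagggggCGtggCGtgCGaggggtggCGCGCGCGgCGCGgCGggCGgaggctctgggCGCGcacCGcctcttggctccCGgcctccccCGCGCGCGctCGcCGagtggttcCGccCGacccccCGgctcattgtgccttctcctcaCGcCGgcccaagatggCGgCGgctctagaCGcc
Tbl1xr1: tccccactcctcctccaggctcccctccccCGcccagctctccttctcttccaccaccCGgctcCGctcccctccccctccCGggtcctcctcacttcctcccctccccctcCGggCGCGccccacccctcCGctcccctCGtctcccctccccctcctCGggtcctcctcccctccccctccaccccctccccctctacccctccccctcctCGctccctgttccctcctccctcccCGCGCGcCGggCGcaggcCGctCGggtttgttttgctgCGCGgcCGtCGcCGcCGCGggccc
Klf6: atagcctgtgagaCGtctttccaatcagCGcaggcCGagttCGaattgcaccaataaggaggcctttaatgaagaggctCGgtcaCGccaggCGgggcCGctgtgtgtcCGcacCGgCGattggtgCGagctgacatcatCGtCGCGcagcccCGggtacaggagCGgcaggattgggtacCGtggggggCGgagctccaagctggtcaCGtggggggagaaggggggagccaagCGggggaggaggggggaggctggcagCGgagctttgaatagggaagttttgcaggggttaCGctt
Evc: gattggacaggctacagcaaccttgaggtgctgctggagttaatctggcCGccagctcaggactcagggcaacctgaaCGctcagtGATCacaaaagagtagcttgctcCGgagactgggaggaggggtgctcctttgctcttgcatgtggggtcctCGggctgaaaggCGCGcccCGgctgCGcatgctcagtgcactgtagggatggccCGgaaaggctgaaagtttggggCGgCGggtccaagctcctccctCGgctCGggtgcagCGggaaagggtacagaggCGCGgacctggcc
Evc2: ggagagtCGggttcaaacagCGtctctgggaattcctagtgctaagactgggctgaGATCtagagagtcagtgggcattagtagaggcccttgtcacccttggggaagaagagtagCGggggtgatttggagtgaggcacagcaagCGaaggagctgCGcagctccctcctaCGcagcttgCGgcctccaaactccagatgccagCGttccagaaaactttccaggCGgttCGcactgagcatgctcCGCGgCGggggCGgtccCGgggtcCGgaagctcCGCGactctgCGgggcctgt
Otog: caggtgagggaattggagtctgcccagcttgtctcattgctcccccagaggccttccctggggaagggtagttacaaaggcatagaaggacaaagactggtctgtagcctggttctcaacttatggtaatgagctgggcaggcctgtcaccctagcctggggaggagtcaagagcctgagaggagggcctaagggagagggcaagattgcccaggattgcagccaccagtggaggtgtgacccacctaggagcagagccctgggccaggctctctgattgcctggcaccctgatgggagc
Cyp2d10: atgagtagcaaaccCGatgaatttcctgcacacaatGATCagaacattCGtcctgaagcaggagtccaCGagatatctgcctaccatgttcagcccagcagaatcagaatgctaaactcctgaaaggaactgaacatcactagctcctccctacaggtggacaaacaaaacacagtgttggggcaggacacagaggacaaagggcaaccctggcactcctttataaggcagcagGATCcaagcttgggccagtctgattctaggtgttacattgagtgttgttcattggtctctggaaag

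The windows differ widely in the capitals. Dmxl2 held 63 CG dinucleotides and Dot1l held 49, and neither window had a GATC. The promoters of the near-empty regions were also CG-rich, with 25 in Tbl1xr1 and 23 in Klf6. Evc held 16 and Evc2 held 19, each with 1 GATC. Otog held none although it lies in 1 of the 5 densest regions, and Cyp2d10 held 3 CG and 2 GATC. A region outside the LADs thus holds both kinds of promoter, and the shares over all promoters are given further on.

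The wide regions covered 770.6 Mb, which was 30.2% of the 2554.74 Mb between the first and last LADs. The narrower runs covered 11.2% of that span and LADs 58.6%. The wide regions were 26.7% of the inter-LAD runs by number and 72.9% by length. Their median width was 1.9 Mb, with quartiles of 1.32 and 2.88 Mb and a maximum of 13.66 Mb, against a median of 0.26 Mb for the narrower runs. By width class, 171 regions were under 2 Mb, 88 were from 2 to under 4 Mb, and 52 were 4 Mb or more. These 52 held 289.58 Mb, and the 10 widest alone held 11.4% of the length of all wide regions.

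The threshold of 1 Mb cuts through a continuous range of widths. Exactly 1 Mb was reached by 6 regions, and 23 members were under 1.1 Mb. On the other side, 4 runs had 0.98 Mb and 34 had 900 kb or more. Of the 6 regions of 1 Mb, 3 lie on chromosome 15. They held Myc as the only protein-coding gene, 37 genes around the phosphatase subunit gene Ppp6r2, and 7 genes around Ano6, which encodes a calcium-activated scramblase. The others, on chromosomes 2, 3 and 5, held 5, 15 and 16 protein-coding genes. Of the 4 runs just under the threshold, those on chromosomes 1, 11 and 18 held 13, 17 and 8 protein-coding genes, with Ptpn4, Galnt10 and Tmem241 as the longest. The plot of run widths shows no gap at 1 Mb.

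**Figure D1:**
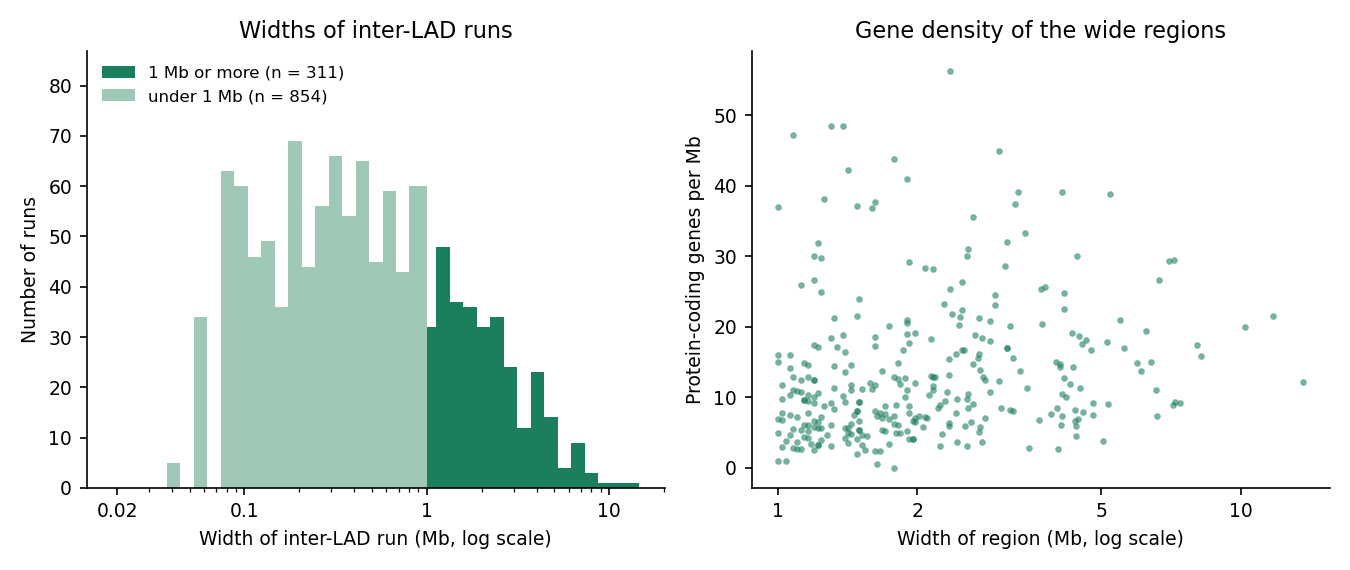
Left, widths of all inter-LAD runs in Mb on a log axis, with the 311 runs of 1 Mb or more in dark green and the 854 narrower runs in light green; the bars are counts of runs. Right, protein-coding genes per Mb against width on a log axis for each of the 311 wide regions, 1 point each; density reaches 56.4 per Mb and the widest region, at 13.66 Mb, has 12.2 per Mb.

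Most protein-coding genes of these chromosomes lay in the wide regions. Placed by its midpoint, a protein-coding gene fell in a wide region in 11248 of 21523 cases, or 52.3%, and a gene of any biotype in 21906 of 49214 cases, or 44.5%. These shares are the background against which the gene lists are read. Narrower runs held 16.7% of the protein-coding genes and LADs 29.6%, which are the background for protein-coding list members counted there. Pooled over the genome, the wide regions held 14.6 protein-coding genes per Mb, the narrower runs 12.5 and the LADs 4.25. Over the 20 chromosomes the density was 14.2 ± 3.76 per Mb in wide regions, 12.7 ± 2.39 in narrower runs and 4.37 ± 1.66 in LADs (mean ± SD over chromosomes). The wide regions were denser than the LADs on 20 of 20 chromosomes and denser than the narrower runs on 16 of 20.

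The 4 exceptions were chromosomes 1, 12, 13 and 19. On chromosomes 1 and 12 the densities were close, with 11.6 per Mb in wide regions against 12.01 in narrower runs on chromosome 1, and 10.1 against 10.6 on chromosome 12. On chromosome 13 the wide regions held 8.66 per Mb and the narrower runs 14.4. The main histone gene cluster lies there, with 52 histone genes in narrower runs, and without them the narrower runs held 11.5 per Mb, still above the wide regions. On chromosome 19 the wide regions held 10.6 per Mb against 19.6 in narrower runs. A further 180 protein-coding genes of chromosome 19 lie outside its first and last LAD, the first of which starts at position 7640001, and so belong to no run at all. The most gene-dense wide regions were on chromosome 7, with 22.7 per Mb, chromosome 11, with 21.1, and chromosome 17, with 19.4. Chromosome 11 also had the largest share of its span in wide regions, 45.4%, and chromosome X the smallest, 20.4%.

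**Figure D2:**
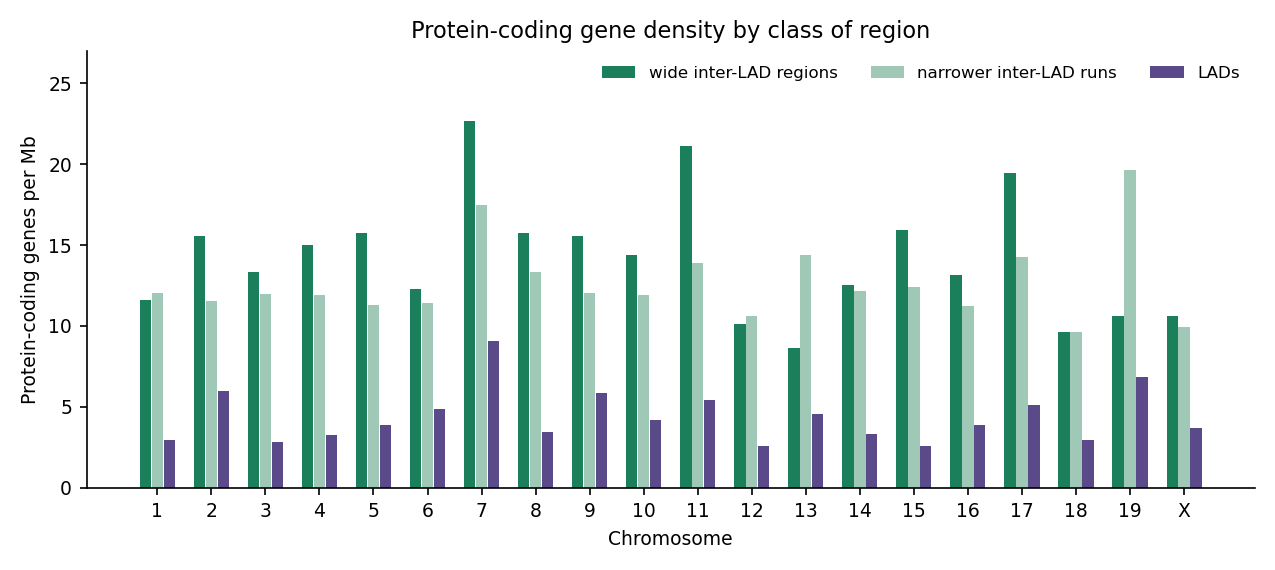
Protein-coding genes per Mb on each of the 20 chromosomes in wide inter-LAD regions (dark green), narrower inter-LAD runs (light green) and LADs (purple); bars are pooled densities with no replicate error. The dark bar stands above the purple bar on 20 of 20 chromosomes and above the light bar on 16 of 20.

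Single regions varied more than the classes did. The median region held 10.8 protein-coding genes per Mb, with quartiles of 6.59 and 17.6 and a range of 0 to 56.4. By count, the median region held 22 protein-coding genes and the fullest held 254. As few as 53 regions held 50% of the 11248 genes. The 20 regions with 100 genes or more held 3058 genes, 27.2% of the total, in 120.82 Mb, and 19 regions held fewer than 5. Width and density were weakly related across the 311 regions (Spearman correlation 0.27, a description over regions of 1 genome). The pooled density was 11.9 per Mb for regions under 2 Mb, 16.4 from 2 to under 4 Mb and 15.4 at 4 Mb or more. Gene bodies covered a median of 59.9% of a region, and the longest stretch without a protein-coding gene had a median of 0.221 Mb. In 53 regions that stretch was 500 kb or more, and in 7 it was 1 Mb or more.

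The widest region was chr9:54360001-68020000, 13.66 Mb with 167 protein-coding genes. Its longest genes were Thsd4 (555 kb), which encodes an extracellular matrix protein of the ADAMTS-like family, Tln2 (417 kb), the integrin and actin adaptor talin 2, and Scaper (388 kb). Dmxl2 started its span 5.16 kb from the left border, and Vps13c, which encodes a lipid transfer protein between organelles, ended 22.3 kb from the right one. The flanking LADs were 0.64 and 1.32 Mb, both in both lists. Each method alone also left this stretch free, as a run of 13.68 Mb by Nanopore and 13.72 Mb by Illumina. The longest piece without a protein-coding gene inside it was 0.495 Mb.

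The second widest, chr2:24540001-36300000, was 11.76 Mb and held 254 protein-coding genes, more than any other region. It contains Notch1, the receptor gene, and Dbh, which encodes the enzyme that makes noradrenaline. The genes nearest to its borders were Cacna1b, encoding the pore subunit of the N-type calcium channel, 63.9 kb inside the left border, and Ptgs1, encoding cyclooxygenase 1, 41.4 kb inside the right one. Its 3 longest genes were Ralgps1, Ttll11 and Mapkap1, the last encoding a subunit of the mTORC2 kinase complex. The third, chr4:131760001-141980000, was 10.22 Mb with 204 genes, among them Igsf21, Eif4g3 and the ephrin receptor gene Ephb2 as the longest. Wnt4, a Wnt ligand gene, lies 4691 kb from the nearest border of that region. The only region of more than 10 Mb with under 200 genes was thus the widest one.

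The other regions among the 10 widest split by gene content. Dense ones were chr17:23540001-30700000, 7.16 Mb with 211 genes (29.5 per Mb) and Btbd9, Zfand3 and Anks1 as its longest, and chr15:75440001-82440000, 7 Mb with 205 genes (29.3 per Mb) and Tnrc6b, Rbfox2 and Mrtfa. Tnrc6b acts in microRNA silencing, Rbfox2 in splicing, and Mrtfa is a cofactor of serum response factor. Sparse ones were chr1:57920001-65300000, 7.38 Mb with 68 genes (9.21 per Mb), chr6:28380001-35580000, 7.2 Mb with 67 genes (9.31 per Mb), and chr12:75380001-82520000, 7.14 Mb with 64 genes (8.96 per Mb). Their longest genes were long indeed. Pard3b, a cell polarity gene, spanned 1004 kb on chromosome 1, Exoc4, of the exocyst, 725 kb on chromosome 6, and Rad51b, of recombination repair, 551 kb on chromosome 12. Between these extremes stood chr5:29160001-37380000 with 130 genes (15.8 per Mb), the longest being Babam2 of a BRCA1 complex, the sorting receptor gene Sorcs2 and the polymerase gene Poln. The last, chr4:40660001-48700000, held 140 genes (17.4 per Mb), with Gabbr2, Unc13b and Pax5 as the longest.

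The densest regions were short to middling in width. On chr10:79520001-81880000, 133 protein-coding genes shared 2.36 Mb (56.4 per Mb), with Gng7, Sbno2 and Dot1l as the longest at 66.3, 49.1 and 40.4 kb. Lmnb2, a lamin gene, lies in the same region. The next were chr8:69600001-70980000, with 67 genes around Gatad2a, Crtc1 and Ell (48.6 per Mb), and chr7:18680001-19980000, with 63 genes around the neuronal splicing factor gene Nova2, Mark4 and Ppp1r37 (48.5 per Mb). They were followed by chr10:127920001-129000000, with 51 genes around Sarnp, Rbms2 and Ikzf4 (47.2 per Mb), and chr7:44180001-47180000, with 135 genes around Sergef, Abcc8 and Otog (45.0 per Mb). In all 5 regions the longest of these genes was under 200 kb.

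At the other end, 34 regions held no more protein-coding genes per Mb than the pooled LADs did. They covered 60.12 Mb on 16 chromosomes, with 182 protein-coding genes (3.03 per Mb) and 329 lncRNA genes (5.47 per Mb), against 3.16 lncRNA genes per Mb in LADs. In 22 of the 34 both flanking LADs were in both lists. Some held a single protein-coding gene. Tbl1xr1 was the only protein-coding gene in chr3:20600001-22240000, 1.64 Mb, and the stretch of 1.48 Mb to its left held none. Tcf4, encoding a basic helix-loop-helix transcription factor, was alone in chr18:68780001-69820000, 1.04 Mb, beside 10 lncRNA genes. The LAD of 0.44 Mb on the left of that region was in the Nanopore list only. The wide regions on both sides of that LAD held 18 protein-coding genes together. Myc, encoding the growth-promoting transcription factor, was alone in chr15:61940001-62940000, 45.3 kb from the left border. That region rests on the Nanopore list at its right border, where the flanking LAD of 0.88 Mb was in that list only and the next Illumina LAD began 1760 kb further on. Klf6, Pitrm1 and Pfkp shared chr13:5220001-6700000, 1.48 Mb. The emptiest region, chrX:124240001-126020000, 1.78 Mb, held 10 pseudogenes and no other annotated gene.

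Other classes of gene followed the coding genes to different degrees. lncRNA genes stood at 7.70 per Mb in wide regions, 6.40 in narrower runs and 3.16 in LADs. MicroRNA genes stood at 0.866, 0.787 and 0.212 per Mb in the same order, a steeper step between wide regions and LADs than for lncRNAs. Pseudogenes did not follow that order, with 3.74 per Mb in wide regions, 3.97 in narrower runs and 4.09 in LADs. Transfer RNA genes were most crowded in narrower runs, with 0.236 per Mb in wide regions, 0.557 in narrower runs and 0.0394 in LADs.

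Genes of the wide regions were longer at the median than those of LADs but rarely giant. The median length was 18.1 kb in wide regions, 21.9 kb in narrower runs and 12.7 kb in LADs. Genes over 500 kb numbered 40 in wide regions (0.356% of their genes), 18 in narrower runs (0.502%) and 167 in LADs (2.62%). Genes under 5 kb were 17.2% of those in wide regions, 14.8% in narrower runs and 35.3% in LADs. The longest genes wholly inside a wide region were Tenm3 (1297 kb), encoding a teneurin of synaptic adhesion, Prkg1 (1201 kb), a cGMP-dependent kinase, Ptprt (1139 kb), a receptor phosphatase, and Pard3b. After them came Immp2l, Wwox, Erc2, Npas3, Camta1 and Ptprn2, from 932 kb for Immp2l to 792 kb for Ptprn2. Some of these genes take up much of their region. Wwox (913 kb) shared a region of 1.54 Mb with 3 other protein-coding genes, 4 in all, and Ptprn2 a region of 1.62 Mb that also held 4. Tenm3 and Prkg1 lay in regions of 4.4 and 4.46 Mb with 26 and 31 genes.

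The 622 borders of the wide regions touched 528 distinct LADs. The flanking LAD had a median width of 0.76 Mb at wide regions (quartiles 0.36 and 1.48) and of 0.66 Mb at narrower runs. It was under 100 kb at 23 borders (3.70%) and 2 Mb or more at 102 (16.4%). For 503 borders (80.9%) the flanking LAD was in both lists, for 107 (17.2%) in the Nanopore list only and for 12 (1.93%) in the Illumina list only. Both flanks were in both lists for 208 of the 311 regions (66.9%). The base at which a wide region ended was set by the Nanopore list at 368 borders (59.2%), by the Illumina list at 115 (18.5%) and by both at the same base at 139 (22.3%). Of the 1708 borders of narrower runs, 889 (52.0%) were set by Nanopore, 237 (13.9%) by Illumina and 582 (34.1%) by both. Among the 503 borders with a flanking LAD in both lists, the borders of the methods were a median of 20 kb apart, which is 1 step of the grid. They were within 20 kb at 304 (60.4%) and over 200 kb apart at 33 (6.56%).

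The Nanopore list thus shaped the regions most. Taken alone it left 315 runs of 1 Mb or more, of which 305 held 1 of the 311 regions, 2 held 2 and 8 held none. The Illumina list alone left 345 such runs, 933.04 Mb in all, of which 264 held 1 region, 19 held 2, 2 held 3 or more and 60 held none. The chromosome 6 region among the 10 widest shows how thin a border can be, with a flank of 0.10 Mb in the Illumina list only on the left and one of 0.36 Mb in the Nanopore list only on the right.

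Of the 1145 LADs that lie between 2 inter-LAD runs, 94 (8.21%) had a wide region on both sides. That share asks for 2 wide neighbours, so it is not to be set against the 26.7% of single runs that are wide. These 94 LADs had a median width of 0.83 Mb, from 0.02 to 9.7 Mb. The other 1091 of all 1185 joined LADs, which include the first and last of each chromosome, had a median of 0.68 Mb. Of the 94 LADs, 76 were in both lists, 16 in the Nanopore list only and 2 in the Illumina list only, and 7 were under 200 kb. The narrowest, chr8:123600001-123620000, was 1 grid step of 0.02 Mb in the Illumina list only, between regions of 4.32 and 2.34 Mb. On chromosome 17 a LAD of 0.4 Mb with 4 protein-coding genes, found in both lists, parted regions of 7.16 and 5.22 Mb that together held 414. On chromosome 15 a LAD of 0.3 Mb parted regions of 7 and 4.28 Mb with 256 genes together. On chromosome 4 the LAD of 0.76 Mb left of the third widest region held no protein-coding gene midpoint, and the regions beside it held 257.

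Gene density differed on either side of the borders, and changed over several steps of the grid inside the wide regions. The first 100 kb inside the wide regions held 14.1 protein-coding genes per Mb, and the interior beyond 500 kb held 15.4. The first 100 kb of the flanking LADs held 6.69 per Mb, and the piece from 400 to 500 kb held 5.81. These pieces do not cover the same LADs, with 61.32 Mb in the first and 42.52 Mb in the second, since narrower LADs drop out. Likewise, wider regions give more of the 459.6 Mb of interior beyond 500 kb. How far the differences with distance come from this change of set was not tested. In steps of 20 kb the first step inside the wide region held 8.44 per Mb and the first step of the LAD 6.91. The second step inside the region held 13.9 per Mb and the fifth, from 80 to 100 kb, 17.4, the highest of the 25 steps shown. Over chromosomes the first 100 kb of the regions held 14.1 ± 3.82 per Mb and the piece from 300 to 400 kb 12.7 ± 4.45 (mean ± SD, 20 chromosomes). These spreads are between chromosomes, and the difference between steps within a chromosome was not measured.

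**Figure D3:**
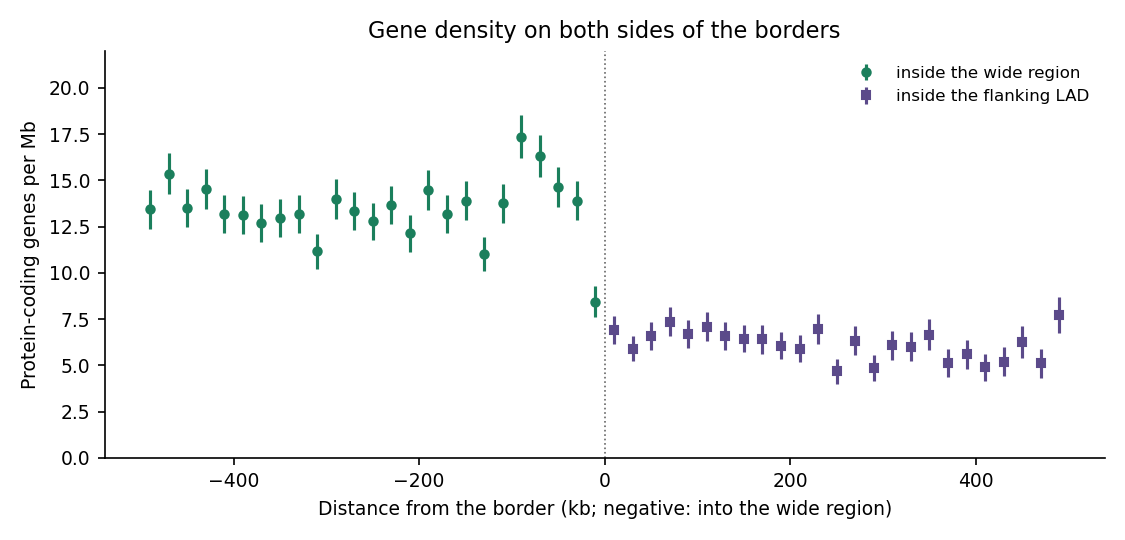
Protein-coding gene midpoints per Mb in 20 kb steps from the border, pooled over 622 borders; negative distances run into the wide region (green circles) and positive ones into the flanking LAD (purple squares), and bars are the square root of the count over the length, which covers counting error only. Density is 8.44 per Mb in the first step inside the region, 17.4 per Mb at 80 to 100 kb and 6.91 per Mb in the first step of the LAD.

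A protein-coding gene ran across 207 of the 622 borders (33.3%), with 229 crossings by 226 genes. The crossing genes were long, with a median of 135 kb against 17.98 kb for the 11161 genes wholly inside a wide region. Of the 158 crossings with a start site in the promoter table, 70 had the listed site inside the wide region and 88 in the LAD. That is 44.3% inside (Wilson 95% interval 36.8 to 52.1, counting error only). Evc2 is of the first kind. Its listed start site lies 1.60 kb from that of Evc, both inside the region on chromosome 5, and 48.0% of the gene lay in the region with the rest in the LAD. Dnah8, a dynein heavy chain gene of motile cilia, also started inside, in the chromosome 17 region, and had 29.4% of its 249 kb there. Zfp800 started inside the chromosome 6 region with 9.62% of its length. Of the second kind were Rhoj, a small GTPase gene, with 23.0% of its length in the chromosome 12 region, and Spats2l, with 16.3% in the chromosome 1 region. Fhad1 started in the LAD and had 71.8% of its length in the chromosome 4 region. Pth2r, a parathyroid hormone receptor gene on the plus strand, had 18.03% of its length, with its first bases, in the chromosome 1 region. Its listed start site, further into the gene, lay in the LAD. Dnah5 was of the same kind, and Etl4 began in a LAD with its listed start site in the region. The split of 70 and 88 is thus one of listed start sites, which can differ from where the annotated gene begins. The gene nearest to a border read away from the LAD at 250 of the 489 borders where its strand was known (51.1%, interval 46.7 to 55.5), against 50.5% of the 8958 genes wholly inside, taken from their nearer border.

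Gene families divided between regions in ways the pooled share of 52.3% does not show. Since the lists were chosen with earlier results of these data known, their shares and intervals are descriptions and not tests. The lists of the general cell machinery each had most members in wide regions. Proteasome genes lay there in 39 of 49 cases (79.6%, Wilson 95% interval 66.4 to 88.5), and 1 of 49, Psme2b, lay in a LAD. Genes matched as cytosolic ribosomal proteins lay in wide regions in 71 of 99 cases (71.7%). That name pattern also takes in 11 genes of ribosomal S6 kinases and of a ribosomal protein partner. Subunits of the mitochondrial ribosome were in wide regions in 54 of 78 cases, translation initiation factors in 38 of 55, and the Rab GTPases of membrane traffic in 48 of 69. For other complexes the interval held the background of 52.3%. The Mediator of RNA polymerase II had 21 of 30 in wide regions (interval 52.1 to 83.3) and nuclear RNA polymerase subunits 19 of 28 (49.3 to 82.1). Aminoacyl-tRNA synthetases had 23 of 35 (49.2 to 79.2), spliceosome proteins 22 of 34 (47.9 to 78.5) and complex I of the respiratory chain 28 of 49 (43.3 to 70.0). With a minimum width of 2 Mb the share of complex I was 36.7% against 38.8% of all protein-coding genes. Of 18 widely used reference genes, 14 were in wide regions, among them Actb, Gapdh and Hprt, and none was in a LAD. These lists were spread out: the 71 ribosomal genes lay in 55 wide regions and the 39 proteasome genes in 30.

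**Figure D4:**
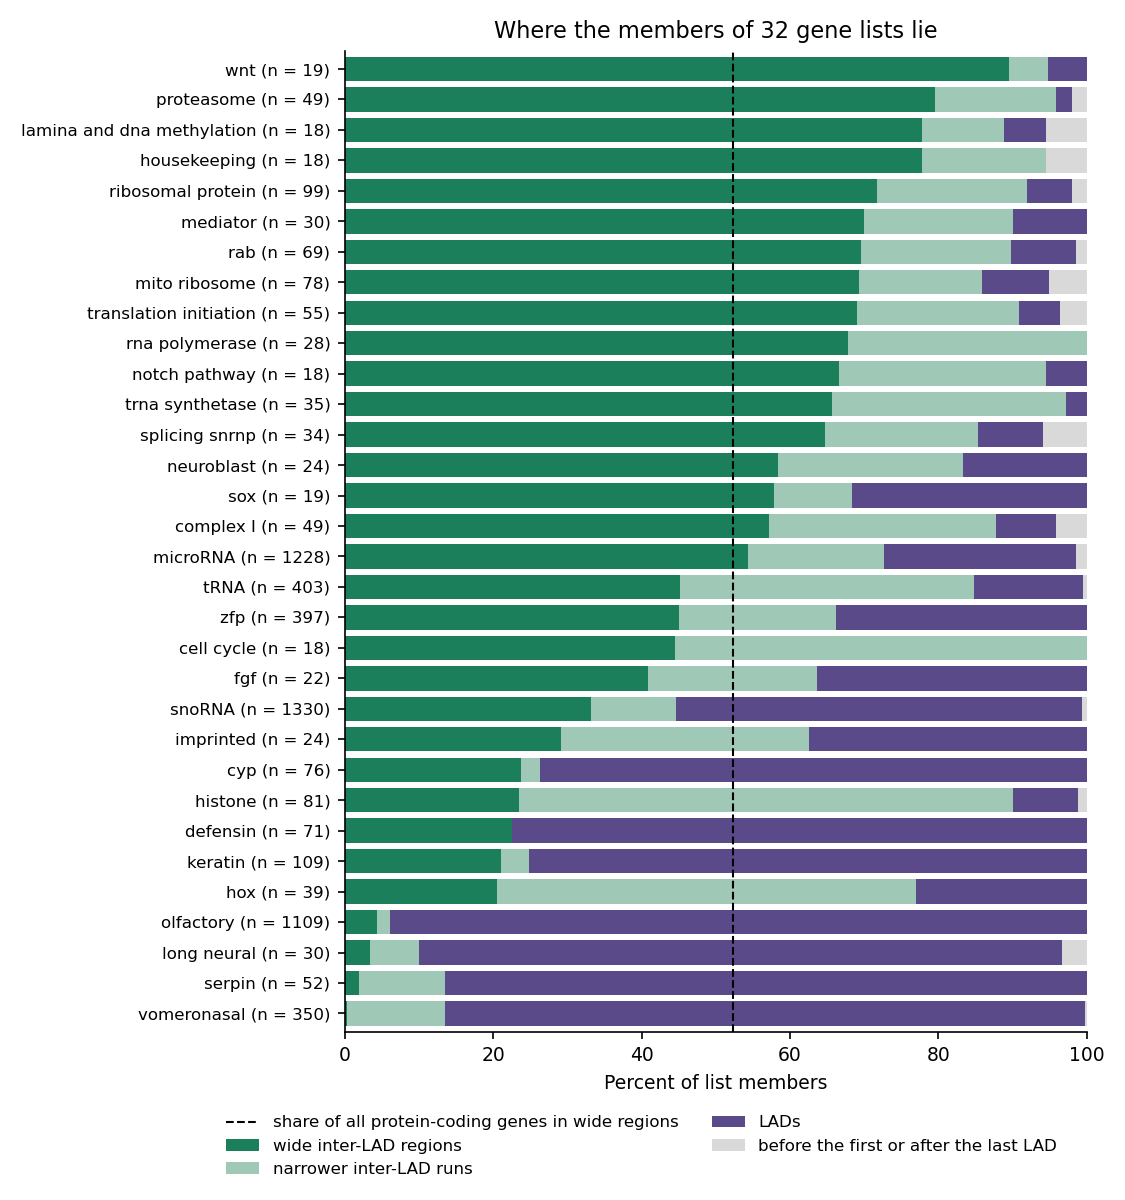
Percent of the members of 32 gene lists that lie in wide inter-LAD regions (dark green), narrower inter-LAD runs (light green), LADs (purple) or outside the first and last LAD (grey), ordered by the first; the number of members is beside each name. The dashed line is the 52.3% of all protein-coding genes in wide regions, and the microRNA, snoRNA and tRNA lists are to be read against 44.5% of genes of any biotype instead.

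The genes of the lamina itself and of DNA methylation were in wide regions in 14 of 18 cases (77.8%, interval 54.8 to 91.0). The share of all protein-coding genes was 52.3%. Lmnb1, which encodes the lamin that was fused to Dam, lay in a region of 5.04 Mb on chromosome 18, 1949 kb from its nearest border, among 19 protein-coding genes. Lmnb2, Lmna and Lbr, encoding other lamins and the lamin B receptor, were also in wide regions. The midpoint of Lbr lay 88.9 kb and its nearer edge 75.3 kb from a border, where the flanking LAD of 0.12 Mb was in the Nanopore list only. Emd, Lemd2, Sun1 and Sun2, which encode proteins of the inner nuclear membrane, were in wide regions too. So were the DNA methyltransferase genes Dnmt1, Dnmt3a and Dnmt3b, their cofactor gene Uhrf1, and Tet1 and Tet3 of demethylation. Lemd3 and Tmpo lay in narrower runs, Tet2 in a LAD and Banf1 beyond the last or before the first LAD of its chromosome.

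Among signalling families, the Wnt ligands were most often in wide regions. They lay there in 17 of 19 cases (89.5%, interval 68.6 to 97.1), in 13 regions on 10 chromosomes, so 4 pairs of neighbours share a region. These pairs were Wnt1 with Wnt10b, Wnt3 with Wnt9b, Wnt3a with Wnt9a, and Wnt6 with Wnt10a. The members of a pair lie side by side, so they are not independent cases. The distance to a border varied widely, from 24.0 kb for Wnt5a to 4691 kb for Wnt4. Wnt2 was in a narrower run and Wnt16 in a LAD. The Notch pathway had 12 of 18 members in wide regions (66.7%, interval 43.7 to 83.7, which holds the background of 52.3%). They included the 4 receptors Notch1, Notch2, Notch3 and Notch4, the ligands Dll3, Dll4 and Jag2, the DNA-binding partner Rbpj and the targets Hes1, Hes5 and Hey1. The ligand Jag1 was in a LAD. Fibroblast growth factors had 9 of 22 in wide regions (40.9%, interval 23.3 to 61.3, which also holds the background of 52.3%). In LADs there were 8 of them (36.4%, against 29.6% of all protein-coding genes). Of the Sox factors 11 of 19 were in wide regions (57.9%, interval 36.3 to 76.9, which holds the background of 52.3%). A further 6 (31.6%) lay in LADs, near the 29.6% of all protein-coding genes. Sox9 lay 24.98 kb from the border of a region of 1.06 Mb.

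Genes of the neuroblast lineage, from which neuroblastoma arises, were in wide regions in 14 of 24 cases (58.3%, interval 38.8 to 75.5). That interval holds the background of 52.3%. With a minimum width of 2 Mb the share was 37.5%, against 38.8% of all protein-coding genes. Phox2a, encoding a homeodomain regulator of the autonomic lineage, was in a wide region, 699 kb from a border. So were the receptor genes Alk and Ret, the transcription factor genes Gata2 and Gata3, and Dbh. Stmn2, a neuronal microtubule regulator, lay 35.6 kb from the border of a region of 1.24 Mb. Mycn was in a narrower run, and Isl1, Tfap2b and Th were in LADs. Th encodes the first enzyme of catecholamine synthesis, and Dbh a later one. The cell cycle list had no member in a LAD, with 8 of 18 in wide regions (44.4%, interval 24.6 to 66.3, which holds the background of 52.3%) and 10 in narrower runs. With a minimum width of 500 kb its share was 72.2% against 60.3% of all protein-coding genes.

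Several clustered families met a border. All 8 Hox genes in wide regions were of the HoxB cluster, Hoxb3 to Hoxb9 and Hoxb13, in chr11:93840001-96340000. Their midpoints lay from 12.5 kb (Hoxb3) to 145 kb (Hoxb13) from its right border, and Hoxb1 and Hoxb2 fell in the LAD beyond it. The other 31 Hox genes were in narrower runs (22) or LADs (9 with the HoxB pair). Of the imprinted genes 7 of 24 were in wide regions (29.2%, interval 14.9 to 49.2), against 52.3% of all protein-coding genes. Among the imprinted genes, H19 lay 3.16 kb from a border on chromosome 7 and its neighbour Igf2 in the LAD beyond. Igf2r and Airn shared a region of 2.16 Mb on chromosome 17, and Mest and Copg2 the chromosome 6 region of 7.2 Mb. Of the 30 long neural genes listed, 26 (86.7%) had their midpoint in a LAD, against 29.6% of all protein-coding genes. In a wide region there was 1, Dlg2, with its midpoint 22.7 kb from the border. The list does not hold every such gene, and Tenm3, wholly inside a wide region, is not on it. Histone genes were in wide regions in 19 of 81 cases (23.5%), 10 of them in chr3:94300001-96940000. Another 54 (66.7%) lay in narrower runs, against 16.7% of all protein-coding genes.

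Families of narrow expression, such as odorant receptors, keratins, defensins and cytochrome P450 enzymes, were mostly in LADs. Their shares there were 94.0%, 75.2%, 77.5% and 73.7% in that order, against 29.6% of all protein-coding genes. Several of their members in wide regions shared a region. Odorant receptor genes were in wide regions in 48 of 1109 cases (4.33%, interval 3.28 to 5.69), in 16 regions, with 8 in chr1:91720001-93860000. Pheromone receptor genes were there in 1 of 350 cases and serpins in 1 of 52. Keratins lay in wide regions in 23 of 109 cases, 11 of them in chr15:98480001-101580000. Of the defensins 16 of 71 were in wide regions, 11 in chr2:151480001-153840000 and the other 5 in chr14:62240001-66400000. Cytochrome P450 genes were there in 18 of 76 cases, 8 of them in chr17:31100001-36320000. Zinc finger genes named Zfp lay in wide regions in 179 of 397 cases (45.1%, interval 40.3 to 50.01), 24 of them in chr7:27100001-31220000. Among small RNAs, to be read against 44.5%, 667 of 1228 microRNA genes (54.3%), 442 of 1330 snoRNA genes (33.2%) and 182 of 403 tRNA genes (45.2%) were in wide regions. Of these tRNA genes, 49 shared chr6:47140001-50360000.

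Promoters of the wide regions were like those of the narrower runs and unlike those of LADs. The promoter table held a usable window for 80.1% of the coding genes in wide regions, 80.1% in narrower runs and 80.7% in LADs, and none on chromosome 18. The GC content had a median of 59.7% in wide regions, 58.3% in narrower runs, 46.5% in LADs and 56.3% over all 17274 promoters. The CpG observed over expected, which is the number of CG dinucleotides times the window length over the product of the C and G counts, had a median of 0.70 in wide regions, 0.71 in narrower runs and 0.23 in LADs. A value of 0.6 or more was found in 61.0% of 9012 promoters in wide regions (Wilson 95% interval 60.0 to 62.0), 61.2% of 2872 in narrower runs (59.4 to 62.9) and 20.5% of 5142 in LADs (19.4 to 21.6). Intervals cover counting error only, and neighbouring promoters are not independent.

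**Figure D5:**
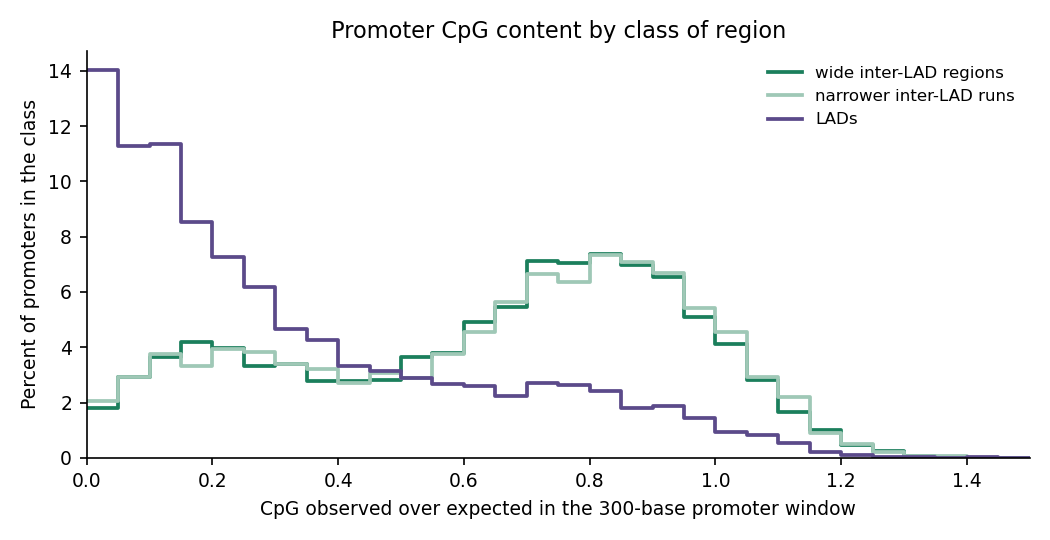
Distribution of CpG observed over expected in 300-base promoter windows, as percent of the promoters in wide inter-LAD regions (dark green, n = 9012), narrower runs (light green, n = 2872) and LADs (purple, n = 5142). The curves for wide regions and narrower runs lie together, with medians of 0.70 and 0.71, and the LAD curve has its median at 0.23.

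Where a window was usable, the sparse regions did not have LAD-like promoters. With the regions split into 4 groups by gene density, the share of promoters at 0.6 or more was 67.5% in the 78 sparsest regions, 64.8% and 62.1% in the groups between, and 58.9% in the 78 densest. In the 34 regions with no more genes per Mb than LADs, it was 72.4% of 127 promoters (interval 64.1 to 79.5), with a median of 0.80. Tbl1xr1 and Klf6, printed above with 0.86 and 0.84, are 2 of these. The 34 regions held 182 protein-coding genes, and those without a usable window, Myc and Tcf4 among them, are not covered. Genes in the 78 sparsest regions were also longer, with a median of 46.8 kb, than in the 78 densest, with 13.1 kb. Across the 264 regions with 5 promoters or more, the median was 0.6 or more in 224 (84.8%), and it ran from 0.19 to 1.03 between regions. Density and the regional median had a Spearman correlation of -0.27 over these 264 regions, given as a description.

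Short motifs were searched on both strands of the promoter windows, and each share is of windows with at least 1 match. The GC box GGGCGG, bound by SP1, was in 58.0% of windows in wide regions, 54.7% in narrower runs, 22.5% in LADs and 46.9% overall. The ETS core CCGGAAGT was in 7.10%, 6.23%, 1.67% and 5.34%, in the same order. The cAMP response element TGACGTCA was in 2.80%, 2.58%, 1.42% and 2.36%. All 3 of these contain CG, so their shares are not independent of the CpG content. The TATA box TATAAA went the other way, with 8.21% in wide regions, 10.3% in narrower runs, 24.7% in LADs and 13.4% overall. GATC, the site that DamID can read, was in 45.0% of windows in wide regions, 43.5% in narrower runs, 50.2% in LADs and 46.3% overall. A window of a wide region thus offers a GATC less often than one of a LAD, and the part this plays in the LAD lists was not tested.

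Start sites on opposite strands, back to back within 1 kb of each other, were about as frequent in the wide regions as in the narrower runs. They were found for 901 of 9012 start sites in wide regions (10.0%, interval 9.40 to 10.6), 307 of 2872 in narrower runs (10.7%, 9.61 to 11.9) and 83 of 5142 in LADs (1.61%, 1.30 to 2.00), against 7.61% overall. Evc and Evc2, 1.60 kb apart, fall just outside that limit.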

How the data were processed

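The authors deposited 2 lists of consensus LADs of N2A cells, by Nanopore and by Illumina, as interval coordinates with no score, count or p-value. Another deposited list, of CTCF peaks in human HEK293T cells, was not used here. Tools named in the submitters' processing notes are bedtools, deepTools, minimap2 and SAMtools, with the builds mm10 and hg38. Neither the LAD caller nor its input samples could be read from the sources, and the depth behind a LAD is unknown. All LAD borders lay on a 20 kb grid.

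The lists were joined on chromosomes 1 to 19 and X, and runs outside both were measured. Genes came from RefSeq (GRCm38.p6) and were placed by midpoint. The distance of a gene-list member to a border was taken from its midpoint, and that of a gene named by position from its nearer edge. The annotation gave 340 genes a start within the first 3 Mb of a chromosome, and these were left out. Promoter windows came from RefSeq (GRCm38.p6). Where several start sites were listed, the outermost was used. Named genes were, in short, the 3 longest genes and those nearest to or across a border in the 10 widest regions. To these were added the 3 longest in the 5 densest and the 5 sparsest regions, the 10 longest in any region, those at the width threshold, and examples of the gene lists. The members, gene lists and rules were chosen with earlier results of these data known. Lmnb2, Wnt4, Notch1 and Dbh are placed beside the regions they lie in because they are list members there. Not every list member is reported here by name. No test was run, since the lists hold no values per sample. Wilson 95% intervals cover counting error only. Computation used Python 3.11.15, pandas 2.3.3, numpy 2.4.6, scipy 1.17.1 and matplotlib 3.10.9, and the run-finding code was tested on simulated data. Alternatives varied the minimum width, the list used, short LADs, chromosome ends, chromosome X and the placing and naming of genes.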

Additional observations from a re-analysis of the deposited data

How the results depend on the processing

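The number of regions and their median width follow the minimum width, being 518 regions of median 1.2 Mb at 500 kb and 140 of median 3.12 Mb at 2 Mb, against 311 and 1.9 Mb at 1 Mb. The share of protein-coding genes in wide regions, 52.3%, became 60.3% at 500 kb, 38.8% at 2 Mb, 58.0% with the Illumina list only, 53.6% where chromosome ends also counted, 53.0% without chromosome X and 53.6% without predicted gene names. Of the shares of the 32 gene lists under these alternatives, 253 of 288 stayed within the 95% interval of the list. That interval covers counting error only, and the background share itself moved with the setting, so the count is a description and no measure of stability. In 5 cases a list changed side of its background share, which is that of all protein-coding genes or, for small RNAs, of genes of any biotype. The cell cycle list stood above it at 500 kb (72.2% against 60.3%), complex I and the neuroblast list below it at 2 Mb (36.7% and 37.5% against 38.8%), and with the Illumina list only Sox factors (57.9% against 58.0%) and tRNA genes (46.2% against 50.9%) below it. The causes were not tested. In each alternative the pooled density stayed in the order of wide regions, narrower runs and LADs. Leaving out a replicate was not run, since the lists hold no values per sample. No paired analysis was possible because the lists carry no replicate columns. Sequence depth is unknown, so how far the borders or the absence of a LAD depend on it could not be measured.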
